A study of Mus musculus with 16 samples.

Results

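The genes described here are the 26 genes of cholesterol synthesis and of its control by the transcription factor SREBP2 that were chosen by name and by function: sterol sensing, the mevalonate and sterol pathway, and sterol carriage. They were found on the arrays by matching each probe's accession to a gene symbol. All 26 had a probe, and all 26 were among the 25790 features tested. The data are 16 samples of liver total RNA from male ApoE KO mice, in which the gene of apolipoprotein E is disrupted. All mice were on a high-fat diet, with an age of 8 weeks given in the labels and livers taken after 8 weeks. The 8 ctrl-inh samples came from mice with a control inhibitor, and the 8 miR-185-inh samples from mice given lentiviruses that encode an antisense inhibitor of the microRNA miR-185. The promoter of the lentivirus and the liver cells it reaches are not given in the sources used here. The study's title and design place its question at bile acid metabolism and Cyp7a1, and the sterol genes address the cholesterol supply that stands before that pathway.

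SREBP2, encoded by Srebf2, is held in the endoplasmic reticulum with its escort SCAP while sterol is plentiful, because SCAP is then bound by the INSIG proteins. When sterol runs low, SCAP carries SREBP2 to the Golgi, where the site-1 protease (Mbtps1) and the site-2 protease (Mbtps2) release its active part, and genes of cholesterol synthesis are transcribed together. The enzymes build mevalonate from acetyl units, turn it into isoprenoids, join these to squalene and convert squalene to cholesterol. The liver is a main site of this synthesis and also turns cholesterol into bile acids.

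Promoter letters were read for the genes whose values the results below turn on, because members that move together invite a look at shared motifs. The 250 bases before the start were searched on both strands in RefSeq's table of build GRCm38.p6, which held 22 of the 26 genes (Fdps, Fdft1, Sqle and Stard4 had no entry). The sterol regulatory element, searched as TCACNCCAC, stood in 1 of 22 genes, against 1.23% of all 27025 genes in the table. A stricter form of it, with an A before it and a C at the free position, stood in 0 of 22, against 0.081%. The CCAAT box, bound by NF-Y, stood in 18 of 22 (81.8%), against 37.5%. The E-box CACGTG stood in 5 of 22 (22.7%), against 6.86%. The stricter form contains the looser one, the E-box reads the same on both strands, and no other motif contains another. The windows are 30 bases long, 5′ to 3′ on the strand of the gene, with the motif in capitals, so that ATTGG marks a CCAAT box on the opposite strand.
Hmgcs1, sterol regulatory element, chr13:119690204-119690233, plus strand: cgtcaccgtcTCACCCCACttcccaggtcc
Hmgcs1, CCAAT box, chr13:119690294-119690323, plus strand: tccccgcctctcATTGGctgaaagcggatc
Insig1, E-box, chr5:28071299-28071328, plus strand: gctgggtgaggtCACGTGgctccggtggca
Insig1, CCAAT box, chr5:28071184-28071213, plus strand: cgccctcctcccATTGGctccggcggcctc
Srebf2, CCAAT box, chr15:82147122-82147151, plus strand: cttcgcgcgccgATTGGctaatgcaagcct
Mvd, CCAAT box, chr8:122443432-122443461, minus strand: ccggccagcgggCCAATcatatggcagcgc
Msmo1, CCAAT box, chr8:64733616-64733645, minus strand: gagtggggcggaCCAATtacgacaggcgag
Hsd17b7, E-box, chr1:169969331-169969360, minus strand: ggacccttgtgtCACGTGgctccgcccctc
Hsd17b7, CCAAT box, chr1:169969206-169969235, minus strand: gagccgggccgagccttgATTGGtcgaggt
Ggps1, CCAAT box, chr13:14063526-14063555, minus strand: cagtcttctaggCCAATcggtaaactgacg

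The element in Hmgcs1 began 137 bases before the start. The CCAAT boxes shown began between 216 bases (Insig1) and 12 bases (Hsd17b7) before it. Ggps1, whose level moved differently from the other enzymes below, also held CCAAT boxes, 3 in its 250 bases, as many as Hmgcs1 and Msmo1. These are matches of letters and show no binding.

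Levels are log2 of the background-subtracted spot intensity minus the 75th percentile of its array, so 0 is the level of that percentile, and a difference of 1 is a doubling. A level belongs to 1 probe, and levels of different genes were not compared. All 38 probes of the 26 genes were well above background on all 16 arrays, and 12 genes had a second probe. Between 58.7% and 74.8% of the 59305 non-control spots of an array were well above background, the median signals lay between 182 and 268, and r between pairs of arrays was 0.984 to 0.996. All ctrl-inh arrays lay on slide 1 with scan 1 and all miR-185-inh arrays on slide 2 with scan 2, so a difference between the inhibitor groups cannot be told apart from one between slides or scans. On each slide 4 arrays lay in row 1 and 4 in row 2, and these rows enter the results below. Each sample is called a mouse here by the number in its title, although the labels do not state that every number is a separate animal, so the spread that the p-values rest on may be technical. In a homogenate of liver, fewer cells of a type and less RNA per cell cannot be told apart. All 10 hepatocyte markers were well above background on all 16 arrays. Limma called 0 of the 10 between the inhibitor groups, where 4.71% of all features were called. Of 8 neutrophil markers, 2 were called lower in miR-185-inh, where 3.47% of all features were called lower. All 8 had a lower mean in miR-185-inh. The summed levels of these markers (linear, relative to each array's 75th percentile) were 4.10 to 14.9 in ctrl-inh and 1.94 to 12.4 in miR-185-inh. The part of the neutrophil markers in the inhibitor differences below was not tested.

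With the slide rows pooled, the sterol genes as a group differed little between the inhibitor groups. Limma called 1 of the 26 genes, Ggps1, at an adjusted p under 0.05, where 4.71% of all 25790 features were called (1.24% higher and 3.47% lower in miR-185-inh). The median difference over the 26 genes, miR-185-inh minus ctrl-inh, was 0.033, beside -0.033 over all features, with 15 genes higher and 11 lower. That split moved to 13 and 13 with normexp background correction, 14 and 12 with the percentile over detected probes, and 16 and 10 with quantile normalization. Groups overlapped in all 26 genes, while 0.857% of all features had groups that did not overlap. The pooled median covers opposite signs by row. Within row 1, 23 of the 26 genes were higher in miR-185-inh (median 0.19), and within row 2, 8 of the 26 (median -0.11). Exact permutation p-values given below for single genes are two-sided, over all 12870 splits of 8 and 8, and unadjusted for the number of genes.

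**Figure D1:**
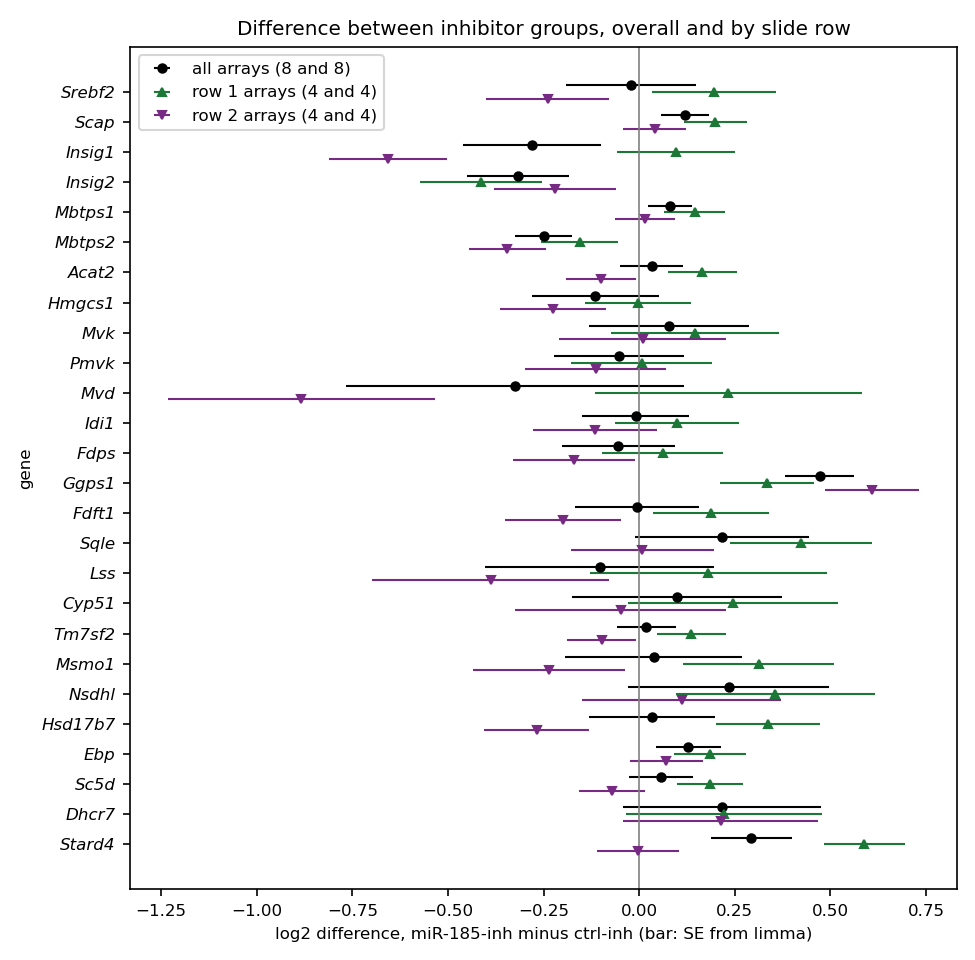
Log2 difference between the inhibitor groups, miR-185-inh minus ctrl-inh, for each of the 26 genes (vertical axis), for all arrays in black (8 and 8), row 1 arrays in green (4 and 4) and row 2 arrays in purple (4 and 4), with bars of 1 SE from limma. Ggps1 lies above 0 in all 3 sets (0.47, 0.33 and 0.61). Many other genes, among them Insig1, Mvd and Hsd17b7, lie above 0 on row 1 and below 0 on row 2.

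Ggps1 makes geranylgeranyl diphosphate, the isoprenoid used to anchor small GTPases, and so draws on the mevalonate pathway before squalene. Its level ran from -1.06 through a median of -0.78 to -0.61 in ctrl-inh livers and from -0.71 through -0.32 to -0.10 in miR-185-inh livers. Each of the 8 miR-185-inh values exceeded the mean of ctrl-inh, and the groups overlapped only through miR-185-inh mouse 10. The mean was -0.80 ± 0.13 (SD, n = 8) in ctrl-inh. In miR-185-inh it rose to -0.33 ± 0.21 (SD, n = 8). The rise of 0.47 (SE 0.09), 1.39-fold, had a limma adjusted p of 0.0083. The exact permutation p was 0.000311. Leaving out any 1 array kept the call (differences of 0.43 to 0.53), while within row 1 alone the difference was 0.33 and within row 2 alone 0.61, neither past the threshold in a fit of those 8 arrays (adjusted p = 0.121 and 0.0763). The second Ggps1 probe was 0.27 higher in miR-185-inh (exact permutation p = 0.00171), but across the 16 arrays, with group means subtracted, it correlated with the first at r = -0.28.

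Among the 6 genes of sterol sensing, 2 were higher and 4 lower in miR-185-inh, and 0 were called. Mbtps2, the site-2 protease that makes the second cut in SREBP2, ran from -3.89 through -3.78 to -3.64 in ctrl-inh and from -4.27 through -4.01 to -3.81 in miR-185-inh. Each of the 8 miR-185-inh values was under the mean of ctrl-inh. The difference was -0.25 (SE 0.07), with a limma adjusted p of 0.0617 and an exact permutation p of 0.00249. It passed the threshold under 3 alternatives: the percentile over detected probes (adjusted p = 0.0178), array weights (0.0398) and leaving out miR-185-inh mouse 3 (0.0333). Apart from leaving out single arrays, the alternatives gave differences from -0.34 to -0.13. Over all settings the limma adjusted p ran up to 0.524. The second Mbtps2 probe differed by -0.033 (exact permutation p = 0.769).

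Insig2, the other INSIG isoform that holds SCAP in the endoplasmic reticulum, ran from 3.11 through 3.28 to 3.58 in ctrl-inh and from 2.36 through 3.13 to 3.26 in miR-185-inh. The lowest values belonged to miR-185-inh mice 3 (2.44) and 6 (2.36), both on row 1. The difference was -0.32 (SE 0.13), with a limma adjusted p of 0.186 and an exact permutation p of 0.0207. Insig1, the sterol-responsive isoform, ran from 0.99 through 1.66 to 2.33 in ctrl-inh and from 1.17 through 1.28 to 1.85 in miR-185-inh, with a difference of -0.28 (SE 0.18, adjusted p = 0.418 in limma). Scap differed by 0.12 (SE 0.06, adjusted p = 0.303 in limma, exact permutation p = 0.0451), with 7 of 8 miR-185-inh values over the mean of ctrl-inh. Srebf2 itself differed by -0.02 (SE 0.17), from a ctrl-inh mean of -0.44 ± 0.41 (SD, n = 8) to a mean of -0.46 under the inhibitor, where the SD was 0.31 (n = 8). The second Srebf2 probe differed by -0.31 (exact permutation p = 0.210) and hardly correlated with the first (r = -0.01), so the small difference belongs to 1 probe. Mbtps1, the site-1 protease, differed by 0.08 (SE 0.06).

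The 7 mevalonate enzymes other than Ggps1 had differences from -0.33 to 0.08. None of the 7 passed the limma threshold. Mvd, which decarboxylates mevalonate diphosphate, had the widest spread: it ran from -0.38 through 1.12 to 2.56 in ctrl-inh and from -0.03 through 0.73 to 2.09 in miR-185-inh, with a difference of -0.33 (SE 0.44). Hmgcs1, which joins acetyl units to form HMG-CoA, differed by -0.11 (SE 0.17), and Acat2, the cytosolic thiolase before it, by 0.03 (SE 0.08). The mevalonate kinases Mvk and Pmvk differed by 0.08 (SE 0.21) and -0.05 (SE 0.17). Idi1, the isopentenyl diphosphate isomerase, and Fdps, the farnesyl diphosphate synthase, differed by -0.01 (SE 0.14) and -0.05 (SE 0.15).

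Of the 11 enzymes from squalene to cholesterol, 9 were higher and 2 lower in miR-185-inh, with differences from -0.10 to 0.23 and 0 called. Sqle, the squalene epoxidase, ran from 1.72 through 2.49 to 3.14 in ctrl-inh and from 1.99 through 2.64 to 3.28 in miR-185-inh. The difference of 0.22 (SE 0.23) lay within the spread between samples. Nsdhl, a demethylating dehydrogenase, and Dhcr7, the reductase of 7-dehydrocholesterol, had similar differences of 0.23 (SE 0.26) and 0.22 (SE 0.26). Ebp, the sterol isomerase, differed by 0.13 (SE 0.08) and Cyp51, the lanosterol demethylase, by 0.10 (SE 0.27). Fdft1, which forms squalene, and Lss, which closes its rings to lanosterol, were the 2 lower genes, at -0.01 (SE 0.16) and -0.10 (SE 0.30). Tm7sf2, Msmo1, Hsd17b7 and Sc5d, which reduce, demethylate or desaturate the ring system, ranged from 0.02 to 0.06.

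Stard4 encodes a soluble sterol carrier of the cytosol. It ran from 1.15 through 1.58 to 1.91 in ctrl-inh and from 1.57 through 1.90 to 2.04 in miR-185-inh, where each of the 8 values exceeded the mean of ctrl-inh. The difference was 0.29 (SE 0.11), with a limma adjusted p of 0.121 and an exact permutation p of 0.0155. With array weights it was 0.38 and passed (limma adjusted p = 0.0407). It lay on row 1, at 0.59 (SE 0.11, adjusted p = 0.0520 in limma), against -0.0037 (SE 0.11) on row 2. Its second probe differed the other way, by -0.17 (exact permutation p = 0.402). Cyp7a1, the rate-limiting enzyme of classical bile acid synthesis and the gene of the study's title, had a limma adjusted p of 0.136 for a difference of 0.71.

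The larger contrast in these genes lay within the ctrl-inh group. The 4 ctrl-inh arrays on row 2 of the slide (mice 8, 9, 11 and 12) had higher levels than the 4 on row 1 (mice 1 to 4) in 25 of the 26 genes, all but Ggps1. Of these, Mbtps1 turned lower with quantile normalization and with the mean of probes, and Mbtps2 with quantile normalization and with the percentile over detected probes. Ggps1 differed by -0.15 with the probe used and by 0.06 with its second probe. The rows did not overlap in 23 of the 26 genes, all higher on row 2, where 18.6% of all features had rows that did not overlap. Limma called 8 of the 26 genes higher and 0 lower on row 2, where 1.61% of all features were called higher (3.24% in either direction). The median difference, row 2 minus row 1, was 0.60 over the 26 genes and 0.09 over all features. This comparison was chosen after the values were seen. The row coincides with the mouse numbers, so row and any shared history of low and high numbers cannot be told apart.

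**Figure D2:**
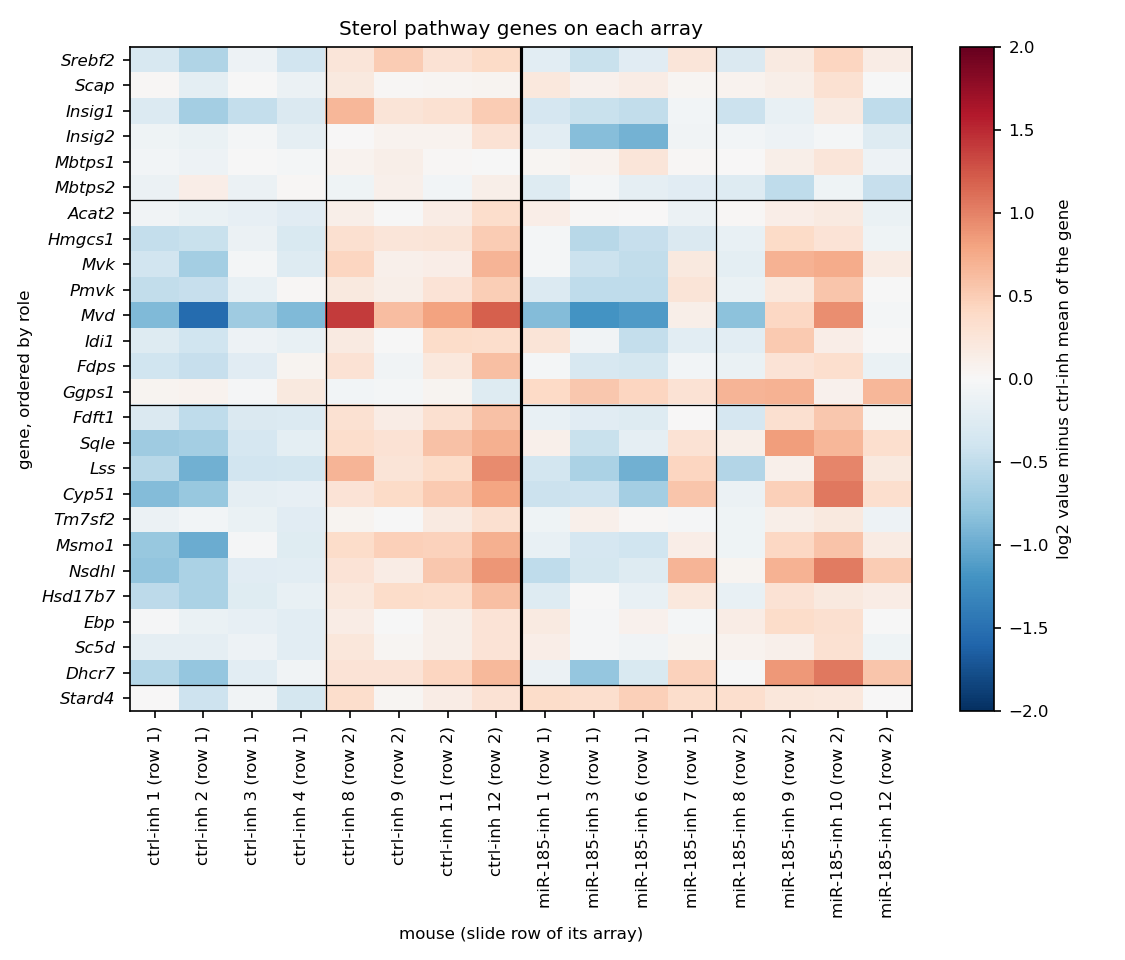
Level of each of the 26 genes (rows, by role) on each of the 16 arrays (columns, by group, mouse and slide row), drawn as the log2 level minus the ctrl-inh mean of the gene. Blue fills most enzymes of ctrl-inh mice 1 to 4 and red those of mice 8, 9, 11 and 12, and in miR-185-inh red is strongest in mice 9 and 10.

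Mvd rose most. Its level was 0.27, -0.38, 0.45 and 0.29 in ctrl-inh mice 1 to 4 and 2.56, 1.78, 1.96 and 2.37 in mice 8, 9, 11 and 12. The rows were separated by a gap wider than the spread within either, and the difference of 2.01 (SE 0.35) was 4.02-fold with a limma adjusted p of 0.0121. Insig1, whose product feeds back on SREBP2, stood at 1.40, 0.99, 1.19 and 1.37 on row 1 and at 2.33, 1.92, 1.97 and 2.17 on row 2. Its rows were also apart, by 0.86 (SE 0.15) or 1.82-fold, with a limma adjusted p of 0.0140. Hsd17b7, a ketosteroid reductase of the demethylation steps, stood at 1.57, 1.46, 1.86 and 1.96 on row 1 and at 2.32, 2.46, 2.46 and 2.71 on row 2, a difference of 0.77 (SE 0.14) with a limma adjusted p of 0.0126. The calls of Mvd, Insig1 and Hsd17b7 held under each alternative run for the row contrast and without each single array.

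Sqle stood at 1.72, 1.75, 2.11 and 2.25 on row 1 and at 2.79, 2.73, 3.02 and 3.14 on row 2, and Msmo1, which removes methyl groups from the sterol ring, at 3.08, 2.84, 3.81 and 3.60 against 4.21, 4.31, 4.29 and 4.54. In both genes the lowest row 2 mouse lay above the highest row 1 mouse. They rose by 0.96 (SE 0.19) and 1.005 (SE 0.20), with limma adjusted p of 0.0174 and 0.0178. Hmgcs1 stood at 4.08, 4.11, 4.44 and 4.25 against 4.88, 4.79, 4.81 and 5.06 and rose by 0.66 (SE 0.14, adjusted p = 0.0231 in limma). Fdft1 and Srebf2 rose by 0.68 (SE 0.15) and 0.71 (SE 0.16), with limma adjusted p of 0.0293 and 0.0315. The mean of probes ended both calls, with 0.25 for Fdft1 (adjusted p = 0.206 in limma) and 0.13 for Srebf2 (adjusted p = 0.657 in limma), and left 6 of the 26 genes called. For these last 2 genes the second probe went the other way between the rows, by -0.18 for Fdft1 and -0.44 for Srebf2, and hardly correlated with the first (r = -0.09 and -0.01 across 16 arrays). Over the 12 second probes, 7 had the same sign as the first for the ctrl-inh rows, and 6 correlated with it at r above 0.9.

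By role, the median row difference within ctrl-inh was 0.81 over the sterol enzymes, 0.53 over the mevalonate enzymes and 0.19 over the sensing genes. All 11 sterol enzymes had rows that did not overlap, with differences from 0.26 to 1.13 and 4 called. The largest of them was Lss at 1.13 (SE 0.31, adjusted p = 0.0590 in limma), which was not called. Of the 8 mevalonate enzymes, 7 were higher on row 2, 6 without overlap, and 2 were called. Of the 6 sensing genes, 6 were higher, 5 without overlap, and 2 were called. Stard4 differed by 0.41 (SE 0.11, adjusted p = 0.0505 in limma). With 4 arrays against 4, an exact permutation test over 70 splits cannot give less than 0.0286. The number of called genes was 13 with normexp background correction and 16 with no filter on dim probes. It was 3 without ctrl-inh mouse 1, 2 or 11 and 5 without mouse 4 or 12.

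Other measures moved with the ctrl-inh rows. Row 1 arrays had 68.6% to 74.8% of spots well above background and row 2 arrays 58.7% to 64.2%, with median signals of 236 to 268 and 182 to 248. Among markers of sinusoidal endothelium, limma called 3 of 7 lower on row 2, where 3.24% of all features were called in either direction. The summed level of the 7, on the linear scale relative to each array's 75th percentile, was 41.97 to 46.5 on row 1, 25.4 to 35.1 on row 2 and 27.4 to 42.9 in miR-185-inh, and all 7 were well above background on every array. Among stellate cell markers 1 of 8 was called lower on row 2, beside the same share, with sums of 32.6 to 43.0 and 25.1 to 35.1. None of the 10 hepatocyte markers was called between the rows, with sums of 409 to 469 and 453 to 585. Nor were tested markers of Kupffer cells (9 of 10 listed), neutrophils (8 of 8), lymphocytes (7 of 8), cholangiocytes (5 of 5) or acinar pancreas (4 of 6). The median difference, row 2 minus row 1, was 0.22 over hepatocyte, 0.44 over neutrophil and 0.21 over cholangiocyte markers. It was -0.35 over Kupffer cell, -0.82 over endothelial, -0.43 over stellate cell, -0.39 over lymphocyte and -0.14 over acinar markers, beside 0.09 over all features. The part of these measures in the difference of the sterol genes was not tested.

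In the miR-185-inh group the same contrast was smaller in most genes. Row 2 (mice 8, 9, 10 and 12) was higher than row 1 (mice 1, 3, 6 and 7) in 22 of the 26 genes, with a median of 0.28 beside 0.01 over all features. Scap, near 0 in this contrast, changed sign with normexp, quantile and detected-probe scaling, and Mbtps1 with the last. No gene was called, and none of all features was either (0%). The rows overlapped in all 26 genes, where 5.45% of all features had rows that did not overlap. Mvd was 0.29, -0.03, 0.03 and 1.28 on row 1 and 0.34, 1.58, 2.09 and 1.12 on row 2. Mouse 7 of row 1 was high and mouse 8 of row 2 low, and the difference was 0.89 (SE 0.35, adjusted p = 0.222 in limma). Dhcr7 had nearly the same row difference in both groups, 0.81 (SE 0.26) in ctrl-inh and 0.80 (SE 0.26) in miR-185-inh, not called in either.

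**Figure D3:**
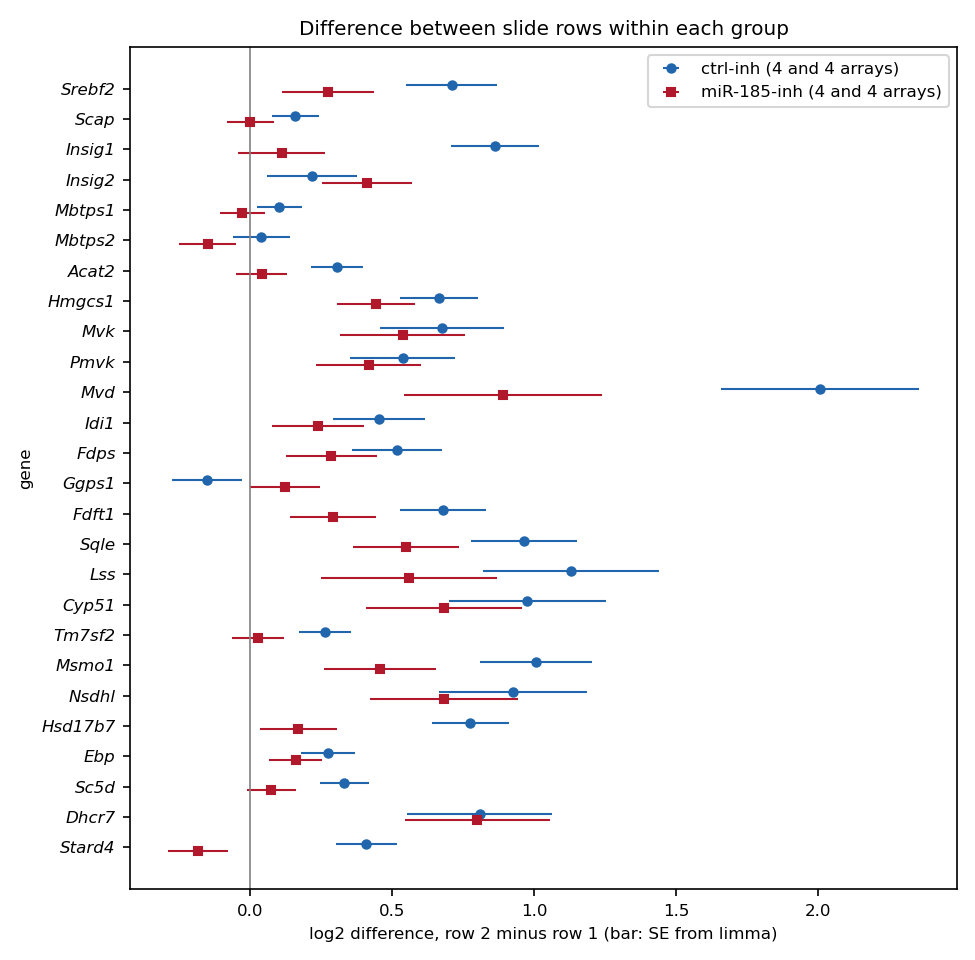
Log2 difference between slide rows, row 2 minus row 1, for each of the 26 genes (vertical axis), in ctrl-inh (blue circles, 4 and 4 arrays) and miR-185-inh (red squares, 4 and 4 arrays), with bars of 1 SE from limma. The blue point lies to the right of the red one in 24 genes, with Mvd farthest at 2.01 and 0.89, and to the left in Insig2 and Ggps1.

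The row difference in miR-185-inh minus that in ctrl-inh was negative in 24 of the 26 genes, with a median of -0.24, and limma called 0 of the 26, where 0.372% of all features were called. At an unadjusted p under 0.05 it took 4 of the 26 members (Insig1, Mvd, Hsd17b7 and Stard4) and 3823 of all 25790 features, a share close to that of the members. Stard4 came nearest, at -0.59 (SE 0.15, adjusted p = 0.0898 in limma), and was the 1 gene that passed when no filter on dim probes was used, so the row effect is not shown to differ between the inhibitor groups in these genes. In a fit with a mean for each group and row, the inhibitor difference within row 1 was positive in 23 of the 26 genes, with a median of 0.19 and 0 members called (0.00775% of features). Within row 2 it was positive in 8 of the 26, with a median of -0.11 and 2 members called (5.78% of features): Insig1 was lower by 0.66 on the log2 scale (a difference of -0.66, SE 0.15, adjusted p = 0.0282 in limma) and Ggps1 higher by 0.61 (SE 0.12, adjusted p = 0.0160 in limma). On row 2 Insig1 stood at 1.23, 1.52, 1.85 and 1.17 in miR-185-inh, all below the lowest ctrl-inh value there of 1.92. In a fit of the row 2 arrays alone neither gene passed (limma adjusted p = 0.0812 for Insig1 and 0.0763 for Ggps1).

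Set beside the sterol genes, Cyp7a1 had its inhibitor difference mostly on row 1. The difference was 1.34 (SE 0.33, adjusted p = 0.0737 in limma) on row 1 and 0.08 (SE 0.33, adjusted p = 0.908 in limma) on row 2. Its row difference was 0.50 in ctrl-inh and -0.76 in miR-185-inh, with an adjusted p of 0.206 in limma for the difference between these.

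The 19 enzymes were also averaged within each mouse. Their mean level relative to the ctrl-inh mean of each gene was -0.44, -0.55, -0.20 and -0.20 in ctrl-inh mice 1 to 4 and 0.32, 0.17, 0.33 and 0.56 in mice 8, 9, 11 and 12. In miR-185-inh mice it was -0.11, -0.30, -0.32 and 0.15 on row 1 (mice 1, 3, 6 and 7) and -0.10, 0.42, 0.53 and 0.13 on row 2 (mice 8, 9, 10 and 12). In miR-185-inh mice 9 and 10, and in ctrl-inh mouse 11, all 19 enzymes stood above the ctrl-inh mean of the gene, while in ctrl-inh mouse 3 none of the 19 did. Other mice were split, such as miR-185-inh mouse 12 with 10 of 19 and mouse 7 with 13 of 19 above it. The median SD over the 26 genes was 0.37 in ctrl-inh and 0.30 in miR-185-inh, beside a median SD of 0.21 within groups over all features. The SD of Mvd within groups was above that of 99.5% of features. The SD was lower in miR-185-inh than in ctrl-inh for 16 of the 26 genes, a count given without a test.

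Coordinated variation was measured as Pearson's r between genes across the 16 arrays after each group's mean was subtracted. These correlations are descriptive: the arrays share slides and rows, and the genes share arrays. Over all 325 pairs of the 26 genes the median r was 0.68, and 34.8% of pairs exceeded 0.8. Between the 26 genes and all other features the median r was 0.13, and 1.04% exceeded 0.8. When row means were subtracted as well, the median fell to 0.43 and the share above 0.8 to 13.2%, beside 0.05 and 0.477% for other features. Within ctrl-inh the median r was 0.85, beside 0.26 between the 26 genes and other features, and with row means subtracted 0.38 beside 0.06. Within miR-185-inh it was 0.53 beside 0.06, and with row means subtracted 0.49 beside 0.05.

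**Figure D4:**
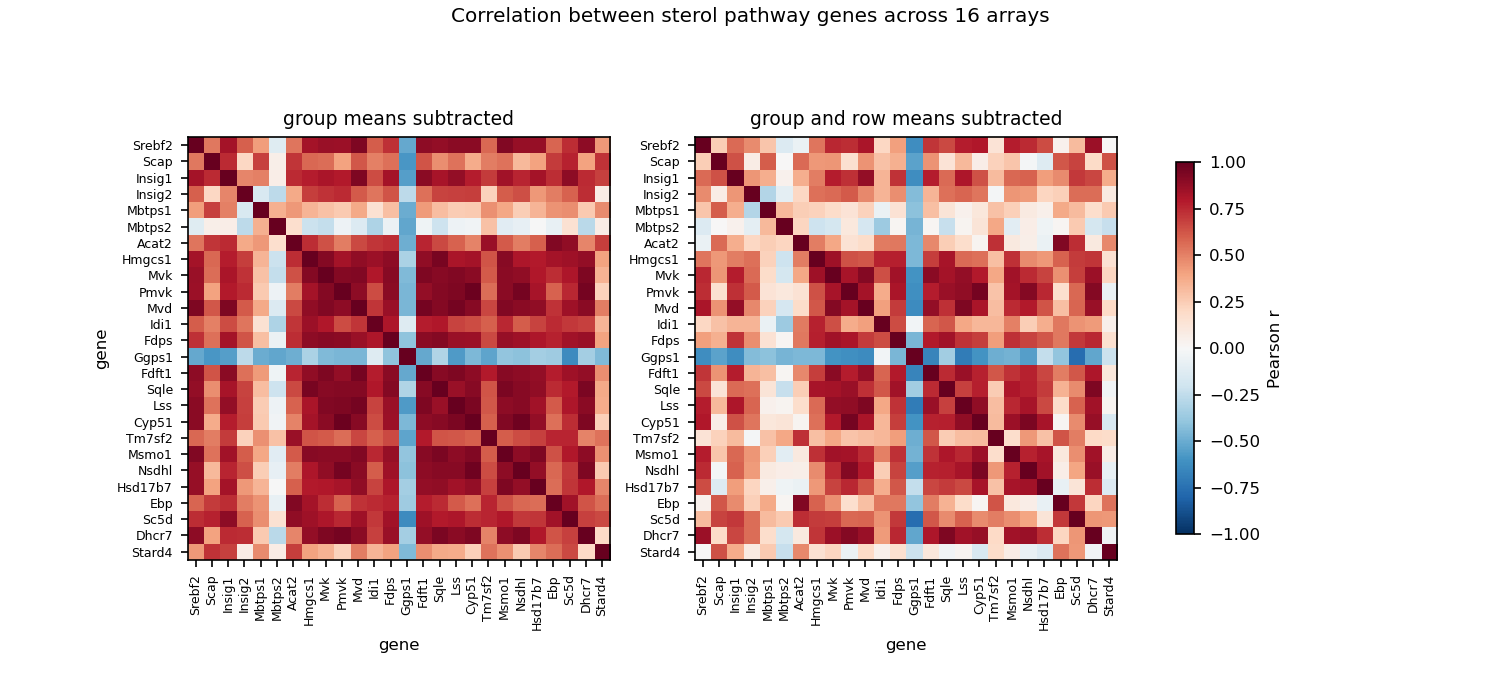
Pearson's r between each pair of the 26 genes across 16 arrays, after group means were subtracted (left) and after group and row means were subtracted (right), on a colour scale from -1 (blue) to 1 (red). On the left most enzyme pairs are red. On the right Acat2, Tm7sf2 and Ebp are pale with several other enzymes (Ebp with Cyp51 at r = 0.017), and Ggps1 is mostly blue in both panels.

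The tightest pair was Pmvk with Cyp51 (r = 0.979, and 0.961 with row means subtracted), followed by Cyp51 with Nsdhl (0.975 and 0.942). These genes stand at the mevalonate end and the sterol end of the pathway. Ggps1, by the probe used here, ran against the rest, with a median r of -0.45 with the other 25 genes. Its lowest value was with Sc5d (r = -0.63, and -0.76 with row means subtracted). The second Ggps1 probe correlated with the probe used at r = -0.28, so this pattern belongs to 1 probe. Mbtps2 had a median r of -0.06, Mbtps1 of 0.34 and Stard4 of 0.40, whereas Mvd and Fdft1 each had 0.88. The second probes of Mbtps2, Mbtps1, Stard4 and Fdft1 correlated with the probe used at r = 0.29, 0.13, 0.47 and -0.09. The medians of these genes therefore also belong to 1 probe each.

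Sqle, the first oxygenation step of the sterol branch, served as the reference for a test. With its level as a covariate beside the group, limma called 17 of the 25 other genes at an adjusted p under 0.05 over all features, all with a positive slope, where 5.37% of the 25789 other features were called with a positive slope. With slide row in the model as well, 1 of the 25 was called (0.00776% of features): Dhcr7, with a slope of 1.30 log2 units per log2 unit of Sqle (SE 0.16) and an adjusted p of 0.0161. The other 16 called genes did not pass with row in the model, where the SEs were larger. Their slopes moved both ways. The slope of Hmgcs1 went from 0.68 (SE 0.07) to 0.59 (SE 0.13). That of Insig1 went from 0.65 (SE 0.12) to 0.46 (SE 0.20) and that of Ebp from 0.25 (SE 0.07) to 0.15 (SE 0.14). In the other direction, Pmvk went from 0.67 (SE 0.08) to 0.85 (SE 0.16) and Fdps from 0.58 (SE 0.08) to 0.71 (SE 0.15). With the larger SEs, a lost call alone does not show whether the slope of that gene fell.

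Across 16 arrays, Hmgcs1 followed Sqle with r = 0.950 and rho = 0.956, Dhcr7 with r = 0.943 and rho = 0.932, Msmo1 with r = 0.941 and rho = 0.941, and Mvd with r = 0.922 and rho = 0.926. The permutation p within groups, over 100000 draws and unadjusted, was 1e-05 for r and for rho in Hmgcs1, Dhcr7 and Msmo1, the smallest these draws can give. In Mvd it was 2e-05 for r and 3e-05 for rho. Without the 2 arrays farthest from the median of Sqle, r was 0.931, 0.942, 0.916 and 0.917 in the same order. With row means subtracted it was 0.828, 0.931, 0.809 and 0.728. The permutation p for these r, drawn within group and row and unadjusted, was 0.0030, 6e-05, 0.0016 and 0.0094. Draws within groups alone mix the rows, so their smaller p-values include any shift shared by a row. Within row 1 (8 arrays) r was 0.745, 0.958, 0.801 and 0.751, and within row 2 (8 arrays) 0.920, 0.899, 0.859 and 0.716. By the r with row means subtracted, Dhcr7 ranked 1 of 25789 features. By the r with group means alone subtracted, it ranked 7 and Hmgcs1 ranked 4. In all, 10 of the 25 genes ranked among the first 100 features, and 15 of the 25 had an r above 0.8, as had 2.07% of all features.

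Outside this block, Ggps1 had r = -0.30 with Sqle and rho = -0.27 (permutation p = 0.252 and 0.297), Mbtps2 r = -0.21 and rho = -0.14 (permutation p = 0.429 and 0.592), Mbtps1 r = 0.31 and rho = 0.41 (permutation p = 0.226 and 0.107), and Stard4 r = 0.38 and rho = 0.32 (permutation p = 0.205 and 0.267). Stard4 followed Sqle within ctrl-inh (r = 0.74, n = 8) and ran against it within miR-185-inh (r = -0.52, n = 8), and the difference between these was not tested. Cyp7a1 had r = -0.09 and rho = -0.05 (permutation p = 0.737 and 0.870), with r = 0.50 in ctrl-inh and -0.77 in miR-185-inh.

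**Figure D5:**
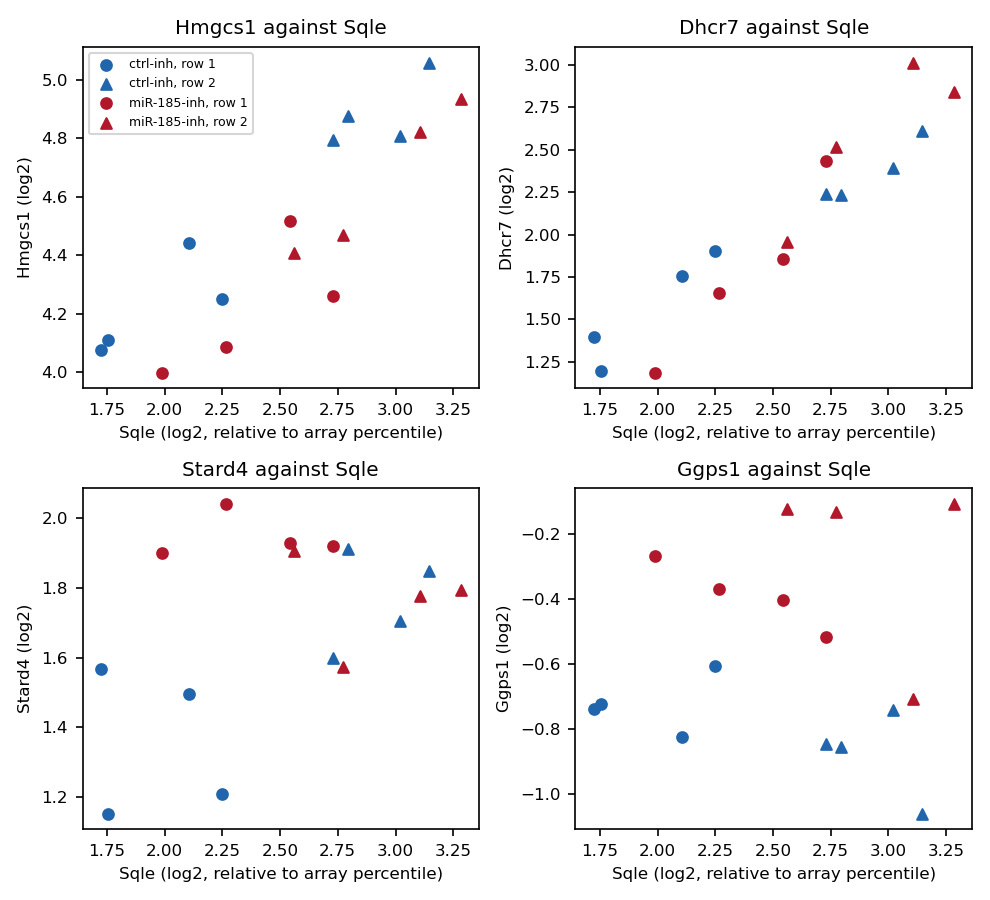
Level of Hmgcs1, Dhcr7, Stard4 and Ggps1 (vertical axes) against that of Sqle (horizontal axes), in log2 relative to each array's 75th percentile, with 1 point per array, groups by colour (blue ctrl-inh, red miR-185-inh) and slide rows by shape (circles row 1, triangles row 2). Hmgcs1 and Dhcr7 rise with Sqle across both groups (r = 0.950 and 0.943), while Stard4 and Ggps1 follow it weakly or not at all (r = 0.38 and -0.30).

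Other genes of the pathway were taken from 4 lists by function: SREBP partners and turnover, supply of acetyl-CoA and electrons, branches of the mevalonate pathway, and cholesterol movement and esterification. Of 52 listed genes 51 were tested, and limma called 0 of the 51 between the inhibitor groups, where 4.71% of all features were called. The genes with the smallest p of each list included Icmt, the methyltransferase of prenylated proteins, at 0.23 (SE 0.07, adjusted p = 0.0669 in limma), with 7 of 8 miR-185-inh values over the mean of ctrl-inh. Fnta, a subunit of the prenyltransferases, differed by 0.14 (SE 0.06) and Rnf139, a ubiquitin ligase, by 0.14 (SE 0.07). Cyb5b and Por, from the list of acetyl-CoA and electron supply, differed by 0.17 (SE 0.07) and 0.19 (SE 0.13). Erlin2, which acts in INSIG and reductase turnover, differed by -0.14 (SE 0.06), and the sterol carriers Osbp and Npc2 by -0.18 (SE 0.08) and -0.13 (SE 0.07). Between the ctrl-inh rows 3 of the 51 were called, where 3.24% of all features were, and they are named here after their values were seen. Syvn1, a ubiquitin ligase of the endoplasmic reticulum, was higher on row 2 by 0.79 (SE 0.10, adjusted p = 0.0050 in limma), and Sec24c, a coat protein of the vesicles that leave it, by 0.36 (SE 0.08, adjusted p = 0.0316 in limma). Mylip, which marks lipoprotein receptors for degradation, was lower, with a difference of -1.04 (SE 0.22, adjusted p = 0.0258 in limma). Between the inhibitor groups within row 2, where 5.78% of all features were called, Syvn1 differed by -0.65 (SE 0.10, adjusted p = 0.0068 in limma). Osbp differed there by -0.34 (SE 0.09, adjusted p = 0.0445 in limma). The row difference of Syvn1 in miR-185-inh minus that in ctrl-inh was -0.74 (SE 0.14, adjusted p = 0.0482 in limma), where 0.372% of all features were called.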

How the data were processed

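Liver RNA of 8 ctrl-inh and 8 miR-185-inh mice was measured on 1-colour Agilent arrays, grouped by the treatment label. Per the file headers, the deposited intensity per spot was background-subtracted and detrended by Feature Extraction 11.5.1.1. The submitters' processing notes name 9.1. The authors' deposited log2 value table differed from the values here by a constant per array, of unstated origin (column medians -1.30 to -1.22).

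From the intensity, log2 was taken and the 75th percentile of an array's non-control spots subtracted. Outlier spots were left out, spots of 1 probe averaged, probes kept when above background on at least 8 of 16 arrays, and the brightest probe of a gene used. Names came from RefSeq GRCm38.p6 (26762 of 55681 probes). The grid is on another build, so no array coordinates are given.

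Tests between groups used limma 3.58.1 (R 4.3.3). They were two-sided, with p-values adjusted by Benjamini-Hochberg across every feature tested and a threshold of 0.05. Rows were compared in a fit with a mean per group and slide row. A planned adjustment of the Sqle correlations over the list was replaced by limma over all features. Normexp (offset 50) used the median spot signal. The genes and lists were chosen with earlier results of these data known. All 26 genes are named, then the other pathway genes called or with the 2 smallest p of each list, and Cyp7a1. The number of arrays limits the precision.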

Additional observations from a re-analysis of the deposited data

How the results depend on the processing

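As reported, 1215 features and 1 sterol gene were called between the groups. With slide row and column as covariates, 1433 features and 1 sterol gene were called. With row 1 arrays only, which leaves 4 arrays a group, 0 features and 0 sterol genes were called, with row 2 arrays only 466 and 0, and without 1 array 735 to 1582 and 1 to 2. The percentile over detected probes called 2 sterol genes and array weights 3. Other scalings moved the split of called features from 320 higher and 895 lower to 396 and 457 (quantile), 549 and 602 (normexp) and 310 and 1502 (detected probes). The median difference of the 26 genes ran from -0.11 to 0.19 over these settings. Other pathway genes called were 1 with normexp, detected probes or row 2 arrays only, 2 with array weights and 0 to 1 without 1 array. The median r between genes was 0.222 with row 1 arrays only, 0.434 with group and row means subtracted, and 0.628 to 0.711 without 1 array. Genes called with Sqle were 17, 1 with slide row in the model, and 15 to 18 otherwise. Sterol genes called by row in ctrl-inh were 6 with the mean of probes, 13 with normexp, 16 with no filter on dim probes, and 3 to 11 without 1 array; by row in miR-185-inh they were 0 to 2 without 1 array, with 2 when mouse 7 was left out. The difference between the row effects called 1 gene with no filter. The cause of these changes was not tested.

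Mouse numbers 1, 3, 8, 9 and 12 occur in both groups. Same-numbered arrays did not deviate together (r from -0.13 to 0.11, with 1 of the 5 matching its own number best). With 5 pairs, these values cannot show whether same-numbered mice share more than a number. The replicate block called 0 features and 0 sterol genes and gave a Ggps1 difference of 0.66 (adjusted p = 0.267 in limma).

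Of 780 recomputed group differences of single genes 79 changed sign, as did 4 of 598 row differences in ctrl-inh and 19 of 598 in miR-185-inh, none of which had been called as reported. With normexp the group difference of Mbtps1 was -0.0055 and of Acat2 -0.067. Fdft1 was 0.0050 with quantile normalization and 0.017 with the mean of probes, and Tm7sf2 -0.0064 with detected probes. Array weights gave Srebf2 0.035, Pmvk 0.0020, Idi1 0.021, Fdps 0.0094 and Fdft1 0.044. Row 1 arrays only gave Srebf2 0.20, Insig1 0.095, Pmvk 0.0062, Mvd 0.23, Idi1 0.099, Fdps 0.061, Fdft1 0.19 and Lss 0.18. Row 2 arrays only gave Acat2 -0.10, Cyp51 -0.048, Tm7sf2 -0.098, Msmo1 -0.24, Hsd17b7 -0.27, Sc5d -0.071 and Stard4 -0.0037. The replicate block gave Acat2 -0.0077, Mvk -0.12, Idi1 0.061, Cyp51 -0.11, Tm7sf2 -0.029, Msmo1 -0.16, Hsd17b7 -0.080 and Sc5d -0.018. The row difference in ctrl-inh was -0.0037 for Mbtps1 and -0.041 for Mbtps2 with quantile normalization, -0.0092 for Mbtps2 with detected probes and -0.016 for Mbtps1 with the mean of probes. In miR-185-inh it was 0.0076 (normexp), 0.034 (quantile), 0.042 (detected probes) and 0.0055 (authors' deposited table) for Scap, 0.013 for Mbtps1 with detected probes, and -0.0018 for Tm7sf2 with the mean of probes.

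Without 1 array, group differences that crossed 0 ran from -0.00039 to 0.082 for Acat2, -0.039 to 0.21 for Cyp51, -0.083 to 0.077 for Fdft1, -0.12 to 0.031 for Fdps, -0.057 to 0.12 for Hsd17b7, -0.085 to 0.057 for Idi1, -0.26 to 0.032 for Lss, -0.10 to 0.14 for Msmo1, -0.018 to 0.18 for Mvk, -0.14 to 0.017 for Pmvk, -0.11 to 0.050 for Srebf2 and -0.013 to 0.064 for Tm7sf2. Row differences in miR-185-inh ran from -0.0053 to 0.10 for Acat2, -0.026 to 0.20 for Insig1, -0.087 to 0.026 for Mbtps1, -0.061 to 0.041 for Scap and -0.028 to 0.070 for Tm7sf2.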
